A study of Drosophila melanogaster with 15 samples.

Results

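Acetylation of lysine 9 of histone H3 (H3K9Ac) was compared between mushroom body nuclei of spaced-trained and naive flies, and the regions described here are those listed as increased after training. The list holds 1889 regions at 1765 genes, taken whole from the deposited table of increased sites, out of 23378 H3K9Ac peaks in the deposited peak table. H3K9Ac was measured by chromatin immunoprecipitation and sequencing (ChIP-seq) in 3 libraries labelled naive and 3 libraries labelled spaced, which make up 6 of the 15 samples of the study. All 6 came from Drosophila melanogaster of strain CS10 and were precipitated with the antibody ab4441. Spaced-trained flies had received an odour paired with electric shocks in repeated sessions separated by rests and were taken 1 day later, and naive flies had received no training. Naive and trained flies alike carried FLAG-KASH, a tag of the nuclear envelope, expressed from the driver MBp-LexA, which labels the α/β and γ lobes strongly and the α′/β′ lobes weakly. Nuclei were pulled from homogenised heads by the tag, and each library pooled many flies of both sexes. The tables give no value for a single library, so read depth and the spread between the 3 libraries of a group were not computed. The list has columns for a mean, an SD and a t-test, the authors' own comparison, which were not used. The size of the change at a region is therefore not given. The deposited list has more rows than the regions the paper counts as increased, and the table does not say how its rows were selected.

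The mushroom body is the centre of olfactory memory in the insect brain, and its intrinsic neurons are the Kenyon cells. H3K9Ac marks the start sites of active genes and is laid down mainly by the acetyltransferase Gcn5 within the SAGA and ATAC complexes, whereas Tip60 acetylates histone H4. CREB is a DNA-binding factor required for long-term memory, and CBP and CRTC are coactivators that it recruits. The comparison addressed which genes gain H3K9Ac in these neurons while a memory formed on the preceding day is stored.

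Beadex (Bx), a LIM-domain cofactor of transcription, was also assayed for H3K9Ac by quantitative PCR. Its single H3K9Ac window in the table, at chrX:18428640-18429040 of the genome build dm3, was listed as increased. The window covers the start site and overlaps the 5′ untranslated region of the gene, and it lay 44 bp from the nearest CREB/CRTC site. Its peaks had PICS scores of 1.63 and 1.99 in the 2 runs of rows that held it. The PCR primers for this locus are shown because they define the stretch that was assayed. The forward primer is 23 bases long with 52.2% G and C, and the reverse primer is 22 bases long with 50% G and C.
Bx forward: gccggatagtttcctcttccttc
Bx reverse: ctggctggtgggtgatataatg
The sequences are given 5′ to 3′, and where in the listed window they fall was not determined.

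Every listed region was 400 bp wide and lay within 500 bp of a transcription start site (TSS) by its own annotation. As a background, each peak was set to a 400 bp window and overlapping windows were removed. This left 7797 windows, 24.2% of them listed as increased, although windows away from every TSS could not have been listed. Intervals in brackets are 95% intervals, Wilson's for a share and Newcombe's for a difference, and they cover counting error over regions or genes only, since neighbouring windows are not independent and the spread between libraries does not enter them. Of the 5268 windows within 500 bp of a TSS by the peak table, 1613 were listed, or 30.6%. Of the 5185 genes named in either table, 34% had a listed region. Only the list names 88 of these genes, so they are listed by construction, and they are counted below among the genes with a peak. With the gene names of the peak table alone the share was 34.5%. These shares are the background for all that follows. Most listed genes had 1 region (1658 genes), 94 had 2 and 13 had 3 or more. The list contains 16 regions that overlap the region before them, so that 1873 separate loci were listed.

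The peak table consists of 3 runs of rows, each sorted along the genome, with 7371, 7231 and 8776 peaks. The methods of the study say that peaks called in the replicates were pooled, but the rows do not state which library or group a run belongs to. The PICS score of a peak measures its strength against input DNA and not a change with training. Scores are given below for the 3 runs in order, and a run without a value had no peak at that window.

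The peaks were checked against marker genes of the cells that a head holds. H3K9Ac peaks were found at 17 of 35 marker genes of the mushroom body, with a summed highest score of 65.5 and a highest score per gene from 1.55 to 6.44, and those of ey, Fas2 and 14-3-3zeta were among them. The cAMP genes rut and dnc, which are classical mushroom body markers, had no peak. Of 32 glial genes 12 had a peak (37.5%, against 48.6% of the mushroom body list, summed score 28.0). The defining genes repo, gcm, moody and alrm had none, whereas Eaat1, Gs2 and drpr had peaks of up to 2.73, 2.83 and 2.67. The highest score per glial gene ran from 0.956 to 5.15, the latter at veg. Of 34 photoreceptor genes 6 had a peak (17.6%, summed score 13.6). The phototransduction channel gene trp had none, whereas norpA, rdgB and Galpha49B had peaks. The highest score per photoreceptor gene ran from 0.916 to 4.34, the latter at santa-maria. A summed score grows with the number of genes that have a peak, so it does not measure purity. Of 39 genes of muscle and fat body 1 had a peak, flr, at 1.61. Listed regions were present at 6 of the 17, 4 of the 12, 3 of the 6 and the 1 gene with a peak. The part of other cell types in the listed increases was not tested.

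The list is made of 2 parts, each sorted along the genome, which the deposited table does not explain. The first part has 409 regions at 348 genes and the second has 1480 regions at 1417 genes, and no gene occurs in both. In the first part, 408 regions (99.8%) carry the name of a gene that also has a CREB/CRTC site (sites of both factors at most 200 bp apart), and the exception is the region of Hairless (H). In the second part 1 region (0.0676%) does. The first part is therefore close to a list of the increased regions at CREB/CRTC genes, and differences between the parts are given as a description.

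**Figure D1:**
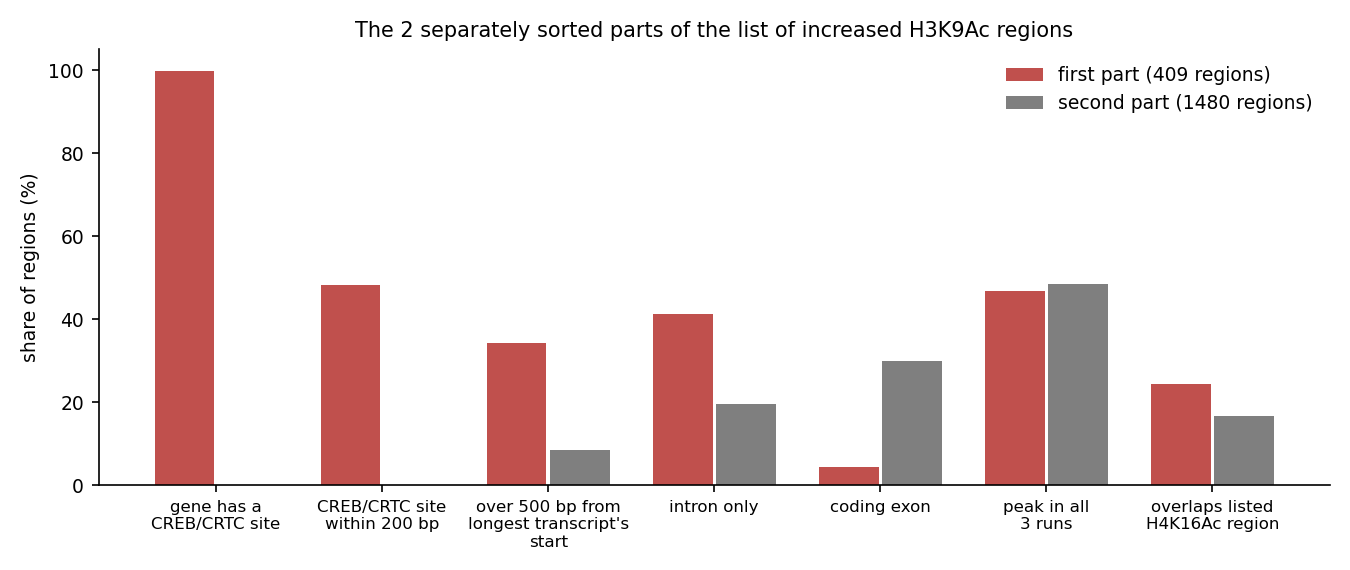
Share of regions (%) with each property in the first part of the list (409 regions, red) and in the second part (1480 regions, grey). The first part holds nearly all regions named to a gene with a CREB/CRTC site, and its regions were more often in introns only (41.3% against 19.5%) and less often in coding exons (4.40% against 30%).

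The regions of the first part lay farther from the TSS than those of the second. By the peak table, which measures from the start of the longest transcript, 34.2% of them were more than 500 bp from the TSS, compared with 8.58% in the second part, a difference of 25.6 percentage points (21 to 30.6). Intron-only regions made up 41.3% and 19.5% of the parts, a difference of 21.9 points (16.7 to 27.1), whereas coding exons made up 4.40% and 30%. Regions upstream of the gene were more frequent in the first part by 5.09 points (0.824 to 9.74). A CREB/CRTC site within 200 bp was present at 48.2% of the first part and 0.135% of the second. The median PICS score was 2.20 in the first part and 2.37 in the second.

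Listed regions were then compared with all other windows for the part of the gene that they overlap. Upstream sequence accounted for 18.3% of the listed regions and 14.4% of the other windows, 5′ untranslated regions for 31.7% and 24.8%, coding exons for 24.5% and 20.2%, and introns alone for 24.2% and 38%. The differences were 3.86 points (1.95 to 5.87) upstream, 6.83 points (4.48 to 9.22) in the 5′ untranslated region, 4.30 points (2.14 to 6.53) in coding exons and -13.8 points (-16.1 to -11.5) in introns. Because the list was limited to regions near a TSS, the comparison was repeated with the windows near a TSS alone. Upstream regions were still more frequent among the listed windows, at 17.4% against 12.9%, a difference of 4.53 points (2.43 to 6.73). The differences for the 5′ untranslated region (-1.26 points, -4.07 to 1.58) and coding exons (-1.25 points, -3.85 to 1.41) were then of the opposite sign with intervals that include 0, and the difference for introns was -2.41 points (-4.62 to -0.101). Of the upstream windows near a TSS 37.4% were listed, compared with 27.9% to 29.9% of those in the 5′ untranslated region, coding exons and introns. Within the list, the TSS lay inside 1123 regions (59.4%).

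**Figure D2:**
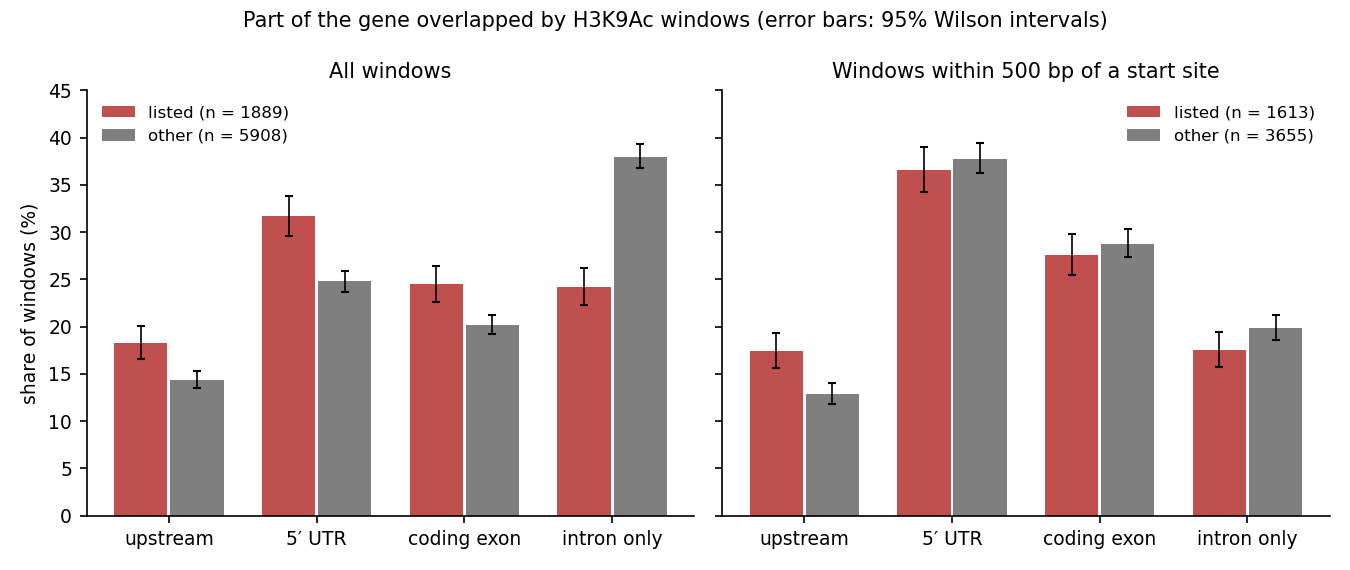
Share of windows (%) in each part of the gene for windows listed as increased (red) and other windows (grey), over all windows (left) and windows within 500 bp of a TSS (right). Error bars are 95% Wilson intervals. Near a TSS, upstream windows made up 17.4% of the listed and 12.9% of the other windows, and the remaining classes lay closer together.

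A group of 267 listed regions (14.1%) at 242 genes lay within 500 bp of a TSS by the list but farther than that from the start of the longest transcript, at a median of 1571 bp. The tables thus measured these regions from different start sites. Of them, 65.5% overlapped introns alone and 24.0% lay upstream of the gene to which the peak table assigned them, and in 208 of the 267 (77.9%) both tables named the same gene. The farthest was 111999 bp into CG42389. The regions next in distance, named after their values were seen, belonged to long genes with several known promoters: bunched (bun), a TSC22-family regulator of growth, had regions 85197 and 62993 bp from the start of its longest transcript, and polychaetoid (pyd), a junction protein, and sickie (sick) had regions at 84999 and 79020 bp. The nuclear envelope protein klar followed at 50142 bp. Regions of transcription factors were found at 41395 bp in sima, a hypoxia factor, at 34311 bp in the clock factor Pdp1, at 34193 bp in the Kenyon cell fate regulator mamo and at 31092 bp in the BMP pathway factor shn, among others of different function. The start of the synaptic vesicle priming factor unc-13 lay 10783 bp away from its listed region. A CREB/CRTC site lay within 200 bp of 20.6% of these 267 regions, compared with 8.80% of the 1613 nearer ones and 15.5% of the 2137 windows that were also farther than 500 bp, named to a gene and not listed. Of the 3655 windows near a TSS that were not listed, 11.7% had such a site.

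The share of windows that were listed was similar along the genome. It was 22.4% on 2L, 25.7% on 2R, 25.1% on 3L, 23.6% on 3R, 17.9% on chromosome 4 and 25.3% on X, against 24.2% over all windows. For each arm, the 95% interval of the difference from the other arms included 0, and that of chromosome 4, with 29 of 162 windows listed, was the widest at -11.7 to 0.233 points. For 2L the difference was -2.20 points (-4.54 to 0.266), and with overlapping regions merged it was -3.08 points with an interval that excluded 0. Dosage-compensated X, on which male flies carry raised H4K16Ac, did not stand apart (1.23 points, -1.57 to 4.20). In segments of 1 Mb with at least 30 windows, the listed share ranged from 12.9% to 38.5% with a median of 23.9%, and the interval of 3 of the 113 segments excluded the share over all windows.

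**Figure D3:**
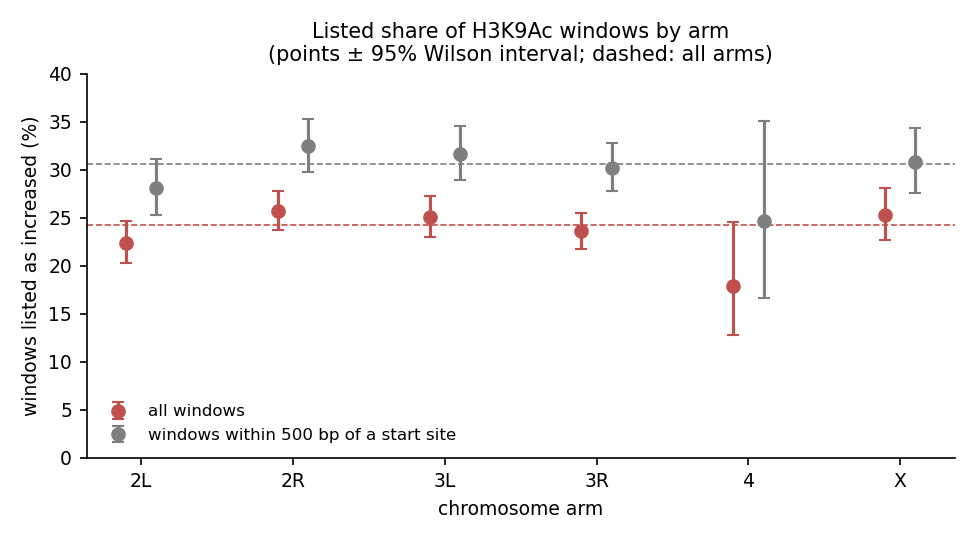
Share of windows listed as increased (%) on each chromosome arm, over all windows (red) and windows within 500 bp of a TSS (grey). Points are shares with 95% Wilson intervals and dashed lines are the shares over all arms (24.2% and 30.6%). The intervals of the 6 arms overlap each other.

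Listed windows were not clearly clustered. After a listed window, the next window within 1 kb was listed in 20.7% of cases (17.8 to 23.9), compared with 19.4% (17.9 to 21.1) after a window that was not listed. At a gap of 1 to 5 kb the shares were 30.4% (26.2 to 35.0) and 26.5% (24.2 to 29.0). Of the listed windows, 1071 (56.7%) had no listed window directly beside them. There were 4 stretches of 6 listed windows in a row. They ran from metro to CG7741 and from CG15098 to Jheh1 on 2R, and from CG4424 to CG4973 and from Golgin84 to Esyt2 on 3R. A stretch of 5 spanned 5755 bp of 2R from Jra, the fly Jun, into 14-3-3zeta, so that an immediate early gene and a learning gene lie side by side in it.

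Peak strength was similar in listed regions and other windows. The median PICS score was 2.33 (quartiles 1.71 and 3.23) for listed regions and 2.31 (1.62 and 3.27) for other windows, and the share above the median of all windows differed by 1.12 points (-1.47 to 3.71). With the windows in 5 equal classes from weakest to strongest, the listed share was 21.9%, 24.8%, 25.6%, 25.9% and 22.9%. Peaks present in all 3 runs were more frequent among listed regions (48.1% against 42.8%, a difference of 5.30 points, 2.72 to 7.88), but near a TSS the difference was -1.39 points (-4.32 to 1.54). The listed region with the highest score lay at RpS27, a protein of the small ribosomal subunit, with 11.1, 10.5 and 17.6 in the 3 runs. It was followed by a region at snoRNA:Psi28S-612 on 3L with 11.0, 13.3 and 7.99, and by RpS18 with 11.2, 11.6 and 11.2. The nicotinic receptor subunit gene nAcRalpha-80B had 9.75, 11.0 and 7.69, and pan, the TCF factor of Wnt signalling on chromosome 4, had 10.8 and 4.81 in the second and the third run. These 5 regions belonged to the second part of the list and lay at least 8694 bp from a CREB/CRTC site.

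Genes with more H3K9Ac windows had more chances to be listed. The share of genes listed was 31.1% (29.6 to 32.7) with 1 window, 44.4% (41.3 to 47.6) with 2, 47.6% (42.1 to 53.1) with 3, 45.8% (38.4 to 53.4) with 4 to 5 and 57.6% (47.4 to 67.2) with 6 or more. Counted per window the order was the opposite, from 31.1% of the windows of genes with 1 window to 11.5% of those of genes with 6 or more. The list holds only regions within 500 bp of a TSS by its own annotation, so windows of a gene away from its start sites could not be listed. Genes with a name of function were listed in 36.9% of cases, and genes known by a computed identifier in 30.8%. A gene list whose members carry many windows is therefore read below both per gene and per window.

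14-3-3zeta (leonardo), a signalling adaptor enriched in the mushroom body and needed for olfactory learning, had the most listed regions. Of its 8 windows 6 were listed, between 5987096 and 5992394 on 2R. The window at the start of the longest transcript had scores of 4.61, 5.09 and 3.8. The 5 others were 684 to 4810 bp downstream in introns, with highest scores from 1.26 to 3.53. The 2 windows that were not listed, at 3360 and 3784 bp, had highest scores of 1.30 and 3.36, within the range of the listed ones. The listed window from 5988779 to 5989179 overlapped a CREB/CRTC site, and this window and the listed ones on either side of it also overlapped regions listed as increased in H4K16Ac.

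**Figure D4:**
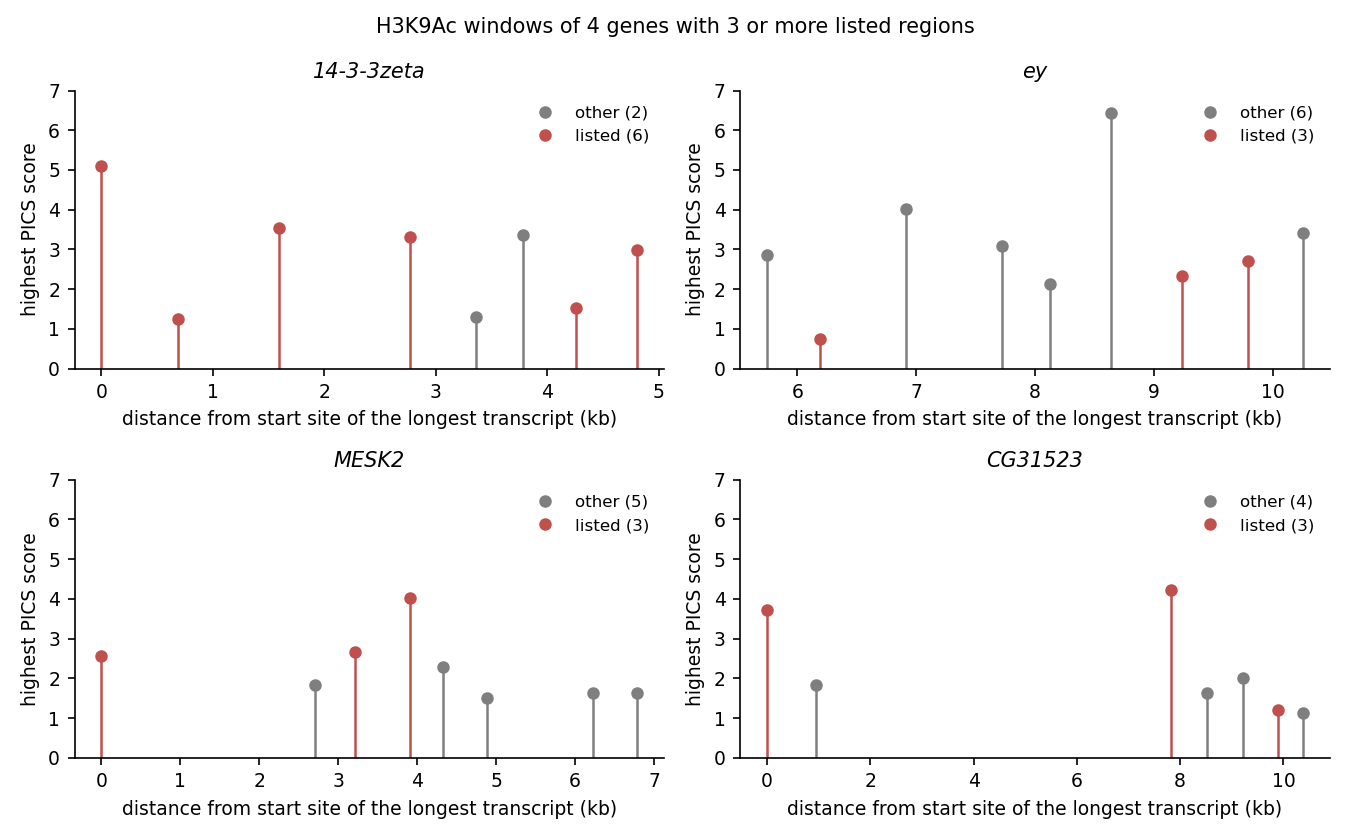
Highest PICS score of each H3K9Ac window (vertical axis) against its distance from the start of the longest transcript (kb) for 4 genes with at least 3 listed regions. Red points are windows listed as increased and grey points are the other windows of the gene. Of the windows of 14-3-3zeta 6 of 8 were listed, of ey 3 of 9, of MESK2 3 of 8 and of CG31523 3 of 7.

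The other genes with at least 3 regions differed in what their regions cover. eyeless (ey), the Pax6 factor that specifies the mushroom body, had 9 windows on chromosome 4 from 5746 to 10256 bp into the gene, of which 3 were listed. These had highest scores of 0.745, 2.32 and 2.71, whereas its strongest window, with 6.44, was not listed, and no CREB/CRTC site lay within 126545 bp of them. eyes absent (eya), a cofactor of the same network, had 2 of 3 windows listed, at the start (1.90, 1.76 and 1.69) and 10869 bp downstream (3.06, 3.90 and 3.59). MESK2, recovered in a screen around the Ras scaffold KSR, had 3 of 8 listed. CG31523, annotated as a fatty acid elongase, had 3 of 7 listed, at the start and at 7819 and 9903 bp. The RNA-binding proteins pasilla (ps) and alan shepard (shep) had 3 of 15 and 3 of 8 windows listed. In shep they lay 378, 4615 and 29538 bp from the start. Eip63E, a cyclin-dependent kinase, had a listed region at 565 bp and a pair of overlapping ones at 29644 and 29710 bp. All 3 windows of CG33129 were listed, and so were 3 of the 4 windows of Fem-1. Not every row is a separate locus, since the regions at 1426409, 1426410 and 1426420 on 3R are 3 rows for 1 window of exba and 2 of the 3 rows of Fem-1 overlap. MEP-1 and Sema-1b, a chromatin factor and a semaphorin, had 3 regions each, and the peak table assigned the 3 at MEP-1 to CG42245 and 1 of those at Sema-1b to CG4966.

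The tables did not always name the same gene. They agree for 1690 of the 1889 regions (89.5%) and name different genes for 190, and in 172 of the 188 of these that could be compared (91.5%) the pair were within 2 places of each other in the RefSeq gene order. The remaining 9 regions have no gene in the peak table. A region between head-to-head genes can thus stand for either gene, and the gene lists below follow the names in the list of increased sites. Genes are grouped by function and are set beside the share of all genes, 34%, and no list was tested. Each share was also computed with the gene names of the peak table, near a TSS, with peaks in at least 2 runs and without genes of CREB/CRTC sites. A list is said to have stayed above or below the background only where it did so under all 4 of these alternatives.

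Among regulators of chromatin, 14 of 28 genes of acetyltransferase complexes with a peak (50%, Wilson interval 32.6 to 67.4) had a listed region. They included Tip60 itself, at a region that the peak table assigned to CG4857, with scores of 5.38 and 6.95 in the second and the third run, and its partners E(Pc) and Nipped-A. The SAGA and ATAC subunits Ada2b (7.64, 8.99 and 7.09) and Sgf29 (3.15, 3.8 and 3.41) and MBD-R2 of the NSL complex were also listed. Named after their values were seen, Gcn5, entered as Pcaf, and mof, which acetylates H4K16, had peaks of 7.58 and 4.96 without a listed region. A CREB/CRTC site was present at 1 of all 28 genes and at none of the 14 listed ones, compared with 19.7% of all listed genes.

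Of 23 deacetylases and corepressors with a peak, 8 were listed (34.8%), a share near that of all genes and below it under each of the 4 alternatives (21.4% without genes of CREB/CRTC sites, against 33% of all genes). These were Sin3A, the scaffold of the Rpd3 complex, HDAC6, MTA1-like and Mi-2 of the NuRD complex, the corepressors H, gro and Smr, and the mitochondrial sirtuin Sirt4. Of these 8 genes, 7 were also in the list of increased H4K16Ac, the exception being Sirt4, as were 11 of all 23 and 25% of all listed genes. A CREB/CRTC site was present at 5 of the 8 and 9 of all 23, compared with 19.7% of all listed genes. The listed region of Sin3A, which the peak table assigned to CG30055, was strong (5.71, 6.19 and 4.86), whereas those of Smr and gro were found in the third run alone, at 1.12 and 1.24. Smr had 7 windows, and its listed window was the weakest of them, since the others had highest scores from 1.86 to 7.04.

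Trithorax, Polycomb and remodelling factors were listed for 24 of 59 genes (40.7%), or 17.6% of their windows. They included members that act in opposite ways, such as the Polycomb group proteins pho (6.78 and 5.88 in the first and second runs) and E(z), the H3K27 methyltransferase, and E(bx), the large subunit of the nucleosome remodeller NURF. The heterochromatin protein Su(var)3-7 had 3.78, 3.84 and 3.15. All 4 histone variant genes with a peak were listed, namely His3.3A and His3.3B, which encode the replacement histone H3.3, His2Av and His4r. Of genes for CREB-type factors and coactivators 3 of 8 were listed: Atf6 (6.39, 5.69 and 7.02), crc, the fly ATF4, and Atf-2. The gene of CREB itself, CrebB-17A, had a peak of 6.57 and no listed region, and neither had CG15321, a model that RefSeq now joins to the CBP gene nej, at 9.04.

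A further list held the 10 genes followed up in behavioural tests, which had been chosen on these or related samples, so that their count is no independent evidence. Of them 7 were listed (aop, beta-Spec, Bx, CG42388, HDAC6, Smr and trx), each with 1 region, and 7 of the 33 windows that the peak table names to the 10 genes were. At aop, an ETS repressor of the Ras pathway, the listed window at the start had 1.31, 1.10 and 1.17, and the other 4 windows had highest scores from 0.465 to 1.86. At beta-Spec, the β-spectrin gene, the listed window had a highest score of 1.76 and the next window 6.18. The listed window of trx, the H3K4 methyltransferase Trithorax, lay 457 bp from the start with 2.29, 2.18 and 2.66 and was the strongest of its 8 windows. Eip71CD, Suv4-20 and Mob2 had peaks of up to 2.29, 6.80 and 4.39 and no listed region under their own name. A window 428 bp from the start of Mob2 was listed under the name CG7394.

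Apart from the genes followed up, the EGFR, Ras and MAPK list had the highest share of the lists with at least 10 genes. It also holds stress kinase genes such as bsk, hep and Mekk1, so its share is not that of receptor tyrosine kinase signalling alone. Of its 36 genes with a peak, 22 were listed (61.1%, 44.9 to 75.2), and 27 of their 70 windows (38.6%, against 24.2% of all windows and 30.6% of those near a TSS). The listed members spanned scaffolds, kinases and inhibitors. The scaffold ksr, which brings Raf and MEK together, had 4.05, 3.87 and 3.57, and its partner cnk had 3.83 in the third run. Spred, an inhibitor of the cascade, had 3.30, 2.93 and 3.19, the phosphatase csw, which transmits receptor signals, had 2.45, 2.72 and 2.84, and the p38 kinase Mpk2 had 2.80, 2.93 and 2.55. Egfr and Ras85D, named after their values were seen, had peaks of 6.83 and 4.61 without a listed region. A CREB/CRTC site was present at 11 of the 22 listed members and 17 of all 36, compared with 19.7% of all listed genes. Without the genes of such sites the listed share of these genes was 57.9%.

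Notch signalling was listed for 14 of 25 genes (56.0%, 37.1 to 73.3) and 33.3% of its windows. They included the ligand Dl (2.45, 2.56 and 3.10), the Numb-associated kinase Nak, l(2)gd1, an endosomal protein that limits ligand-independent signalling, amx, a membrane protein required for signalling, with 2 regions, and the corepressors H and gro, which silence Notch targets. Hippo and NDR kinase genes were listed for 13 of 26 (50%, 32.1 to 67.9), with an interval that includes the share of all genes. Among them were the kinases wts and Tao, the protocadherin ds, Cka with 2 regions and CG11526, the last 2 being subunits of the STRIPAK phosphatase complex. These lists, like the EGFR list, stayed above the share of all genes under all 4 alternatives.

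Other pathways lay near the background. Of Wnt genes 10 of 28 (35.7%) were listed, with pan, the scaffold Axn (2.66, 2.51 and 3.13), arm, the β-catenin, and the receptor fz4. Insulin and TOR genes were listed for 14 of 37 (37.8%), including Tor, the receptor substrate chico, Akt1 and Pi3K21B, and the share was 30.8% without genes of CREB/CRTC sites. BMP and activin genes were listed for 6 of 19 (31.6%): the ligands gbb and Actbeta, the type II receptor put (9.34, 5.09 and 8.53), the inhibitory Smad Dad, shn and spin. The share of the BMP list was 42.1% with the gene names of the peak table and 35.3% near a TSS, above the background, but 20% without genes of CREB/CRTC sites, so that its side is not settled. JAK/STAT and Toll genes were listed for 8 of 27 (29.6%), among them Stat92E with 2 of 8 windows, the NF-κB factors Rel and dl, and PGRP-LE, a receptor for bacterial peptidoglycan, and the share was 50% without genes of CREB/CRTC sites (6 of 12).

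A list built around the cAMP cascade, through which odour and shock are associated in Kenyon cells, also holds regulators of receptors. Of its genes with a peak 7 of 19 were listed (36.8%), and 14.6% of its windows. The listed genes were the phosphodiesterases Pde8 and Pde11, which degrade cyclic nucleotides, the receptor kinases Gprk1 (2.58, 2.12 and 2.45) and Gprk2 (3.33, 3.46 and 2.62), the β-arrestin krz (2.19, 2.01 and 5.19) and the G protein subunits Galpha49B and G-ialpha65A. The catalytic subunit gene Pka-C1, named after its values were seen, had 9 windows and none was listed. The cyclase Ac76E, G-salpha60A and the kinase subunits Pka-R1 and Pka-R2, named in the same way, had peaks and no listed region. Calcium and calmodulin genes were listed for 10 of 30 (33.3%), including the regulatory subunit of calcineurin CanB (2.57, 2.42 and 2.02), the phospholipases sl and Plc21C and the synaptic scaffold CASK. CaMKII on chromosome 4, also named after the fact, had a peak of 12.2 that was not listed.

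Genes of transmitter release were listed for 24 of 48 (50%, 36.4 to 63.6), whereas 26.7% of their windows were, against 24.2% of all windows and 30.6% of those near a TSS. Rim, a scaffold of the active zone, had 8.58 in the first run at a region to which the peak table assigned no gene. The vesicle calcium sensor Syt7 on chromosome 4 had 2 listed regions, the stronger with 7.55, 8.50 and 8.18, and the vesicle fusion protein n-syb had 7.98, 2.31 and 5.83. The endocytosis genes Chc, the clathrin heavy chain, and alpha-Adaptin were also listed, with 4.39, 4.95 and 4.09 for Chc. A CREB/CRTC site was present at 4 of the 24 and 11 of all 48, compared with 19.7% of all listed genes. The listed region of Sytalpha, another synaptotagmin (6.35, 2.87 and 2.97), was assigned to CG6870 by the peak table.

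Lists of receptors and channels were small, and the intervals of their shares included the background. Of 19 ion channel genes with a peak 4 were listed (21.1%, 8.51 to 43.3): the cation channel Ih, the sodium channel NaCP60E, the chloride channel ClC-c and the calcium channel subunit Ca-beta. Of 10 receptors for fast transmitters 3 were listed (30%, 10.8 to 60.3), nAcRalpha-80B, the GABA receptor Rdl (3.73, 4.54 and 4.17) and CG11155, a glutamate receptor subunit on chromosome 4 (10.8, 6.74 and 5.99). Of 13 genes for aminergic and peptide receptors 3 were listed (23.1%), namely Cirl, CG7918 and the octopamine receptor Octbeta2R. Peaks were present at 19 of 76, 10 of 37 and 13 of 87 genes of these lists, so that most of their members could not have been listed. The share of ion channels was 33.3% without genes of CREB/CRTC sites and 13.3% near a TSS, and that of fast receptors was 50% with peaks in at least 2 runs. With the gene names of the peak table the shares were 16.7% for ion channels (3 of 18) and 16.7% for aminergic and peptide receptors (2 of 12).

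The list of mushroom body identity factors mixes transcription factors with RNA-binding proteins such as shep, the receptor babo and factors not particular to Kenyon cells. Its members had 3.54 windows per gene, and 16.2% of these windows were listed. By gene, 13 of 30 with a peak were listed (43.3%). Besides ey and eya they included exd (4.75, 6.74 and 4.92), a homeodomain cofactor, onecut on chromosome 4, the ecdysone receptor EcR, which remodels γ neurons in development, and dsx, the sex determination factor (7.90 and 6.92 in the first and second runs). Of their 18 listed regions 12 overlapped introns alone and 6 lay near the start of the longest transcript. Genes of the ecdysone response were listed for 7 of 18 (38.9%). They were EcR and its partner usp, Eip75B, Eip63E, bon, crol and Hnf4. Of their 9 regions 8 were in the first part of the list, which holds 409 of the 1889 regions, nearly all at genes with a CREB/CRTC site. Such a site was present at 6 of the 7 and 13 of all 18, so the place in the first part follows largely from which genes are in the list. Without genes of CREB/CRTC sites the share was 1 of 5 (20.0%).

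Clock genes were listed for 11 of 28 (39.3%). The core repressor tim had 2 of its 3 windows listed, the stronger with 5.54 and 6.10 in the first and second runs. vri and Pdp1, the repressor and the activator of the second feedback loop, had 1 of 9 windows each, and CkIIbeta, a subunit of the kinase that phosphorylates the repressors, had 1.76, 4.30 and 4.14. Genes known to respond to neuronal activity were listed for 9 of 26 (34.6%), among them vri, Pdp1, the kinase mnb (3.64, 3.94 and 3.6), NFAT, dlg1, a synaptic scaffold, and Thor, the translation inhibitor 4E-BP. Of these 9 genes 8 had a CREB/CRTC site, as did 15 of all 26 and 19.7% of all listed genes. Without the genes of such sites 1 of 11 was listed (9.09%, 1.62 to 37.7). That interval includes the 33% of all genes without such sites.

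RNA-binding regulators of translation in neurons were listed for 15 of 61 genes (24.6%, 15.5 to 36.7), below the background under each of the 4 alternatives. The listed members included Upf1 of nonsense-mediated decay (4.12, 8.07 and 4.90), rin, the fly G3BP, the translational repressors smg, with both of its windows listed, and me31B (2.94, 3.92 and 3.72), and the splicing factor Hrb87F. orb2, a CPEB protein required for long-term memory and named after its values were seen, had a peak of 3.91 without a listed region.

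Structural genes lay near the background. Microtubule genes were listed for 13 of 37 (35.1%), among them betaTub56D (3.13, 3.15 and 3.24) and the dynactin subunit Dmn. The membrane skeleton was listed for 7 of 19 (36.8%), with tau, scrib, dlg1 and beta-Spec, and the share was 22.2% without genes of CREB/CRTC sites (2 of 9). Adhesion and guidance genes were listed for 15 of 49 (30.6%), including Eph on chromosome 4 with 2 regions, the stronger with 5.15, 7.11 and 6.08, the phosphatase receptor Lar and the leucine-rich repeat proteins Con and caps. Rab and membrane traffic genes were listed for 27 of 73 (37.0%), with Rab14 (4.55, 5.27 and 5.38), Rab35 and Rab30.

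**Figure D5:**
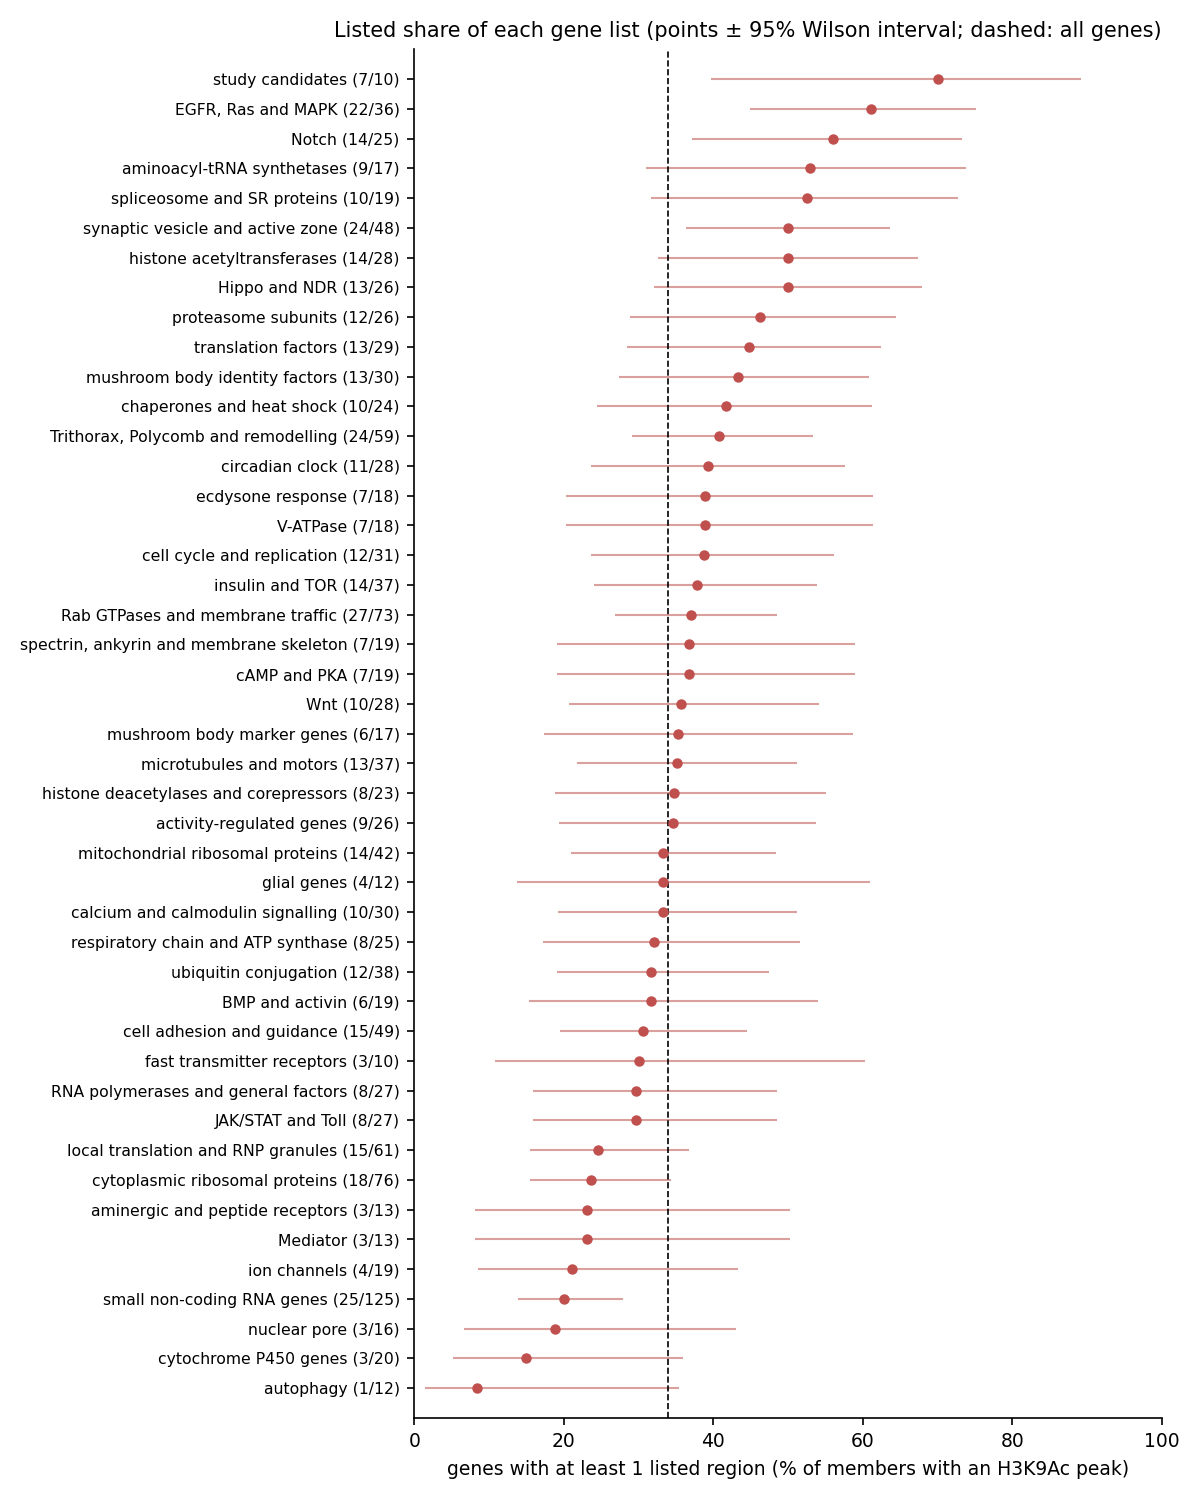
Share of the genes with an H3K9Ac peak that had at least 1 listed region (%), for the lists described of at least 10 genes, in descending order. Points are shares with 95% Wilson intervals, numbers in brackets are listed genes over genes with a peak, and the dashed line is the share of all genes (34%). The EGFR, Ras and MAPK list stood at 61.1% and the autophagy list at 8.33%.

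Housekeeping lists were spread over both sides of the background, but the intervals of the lists in this paragraph included it. Aminoacyl-tRNA synthetases, which charge tRNAs, were listed for 9 of 17 (52.9%, 31.0 to 73.8), among them Aats-lys, Aats-val and Aats-ile (2.82, 2.40 and 3.17). Splicing factors were listed for 10 of 19 (52.6%, 31.7 to 72.7), with snRNP-U1-70K (5.09, 6.80 and 6.74), SmG and SF2. Proteasome subunits were listed for 12 of 26 (46.2%, 28.8 to 64.5), with Rpn7 (4.81, 5.53 and 4.59), Rpn9 with 2 regions and Prosbeta3 (2.43, 2.52 and 2.28). Translation factors were listed for 13 of 29 (44.8%, 28.4 to 62.5), with EfTuM, Ef2b and Ef1alpha48D. In these lists and that of the mitochondrial ribosome (14 of 42, 33.3%), every listed region lay near the start of the longest transcript and none was in the first part of the list. Nearly all members of these lists, listed or not, had a window near a TSS. Apart from 4 of the 29 translation factors, no member had a CREB/CRTC site. Both traits thus follow largely from which genes are in the lists. For the proteasome 1 of all 26 genes was in the H4K16Ac list, and it was not among the 12 listed here. Of all listed genes 25% were in the H4K16Ac list, and of all other genes 18%.

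Proteins of the cytoplasmic ribosome, whose H3K9Ac peaks were strong, were listed at a lower share. Of 76 genes 18 were listed (23.7%, 15.5 to 34.4), and the median highest score of their listed regions was 4.26, compared with 2.33 for the whole list. RpL23 had 9.08, 10.7 and 10.6 and RpL24 had 8.0, 7.69 and 7.09. Of the 76 genes 15 were in the H4K16Ac list, and of the 18 listed here 1 was, compared with 25% of all listed genes. The share stayed below that of all genes under each of the 4 alternatives.

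Small RNA genes, among them snoRNA genes inside introns of other genes, were listed for 25 of 125 (20.0%, 13.9 to 27.9), and a region there cannot be told apart from its host gene. They included mir-276a, with 6.03 in the first run, and mir-274. Nuclear pore and transport genes were listed for 3 of 16 (18.8%), namely Mtor, Nup44A and RanBPM, Mediator subunits for 3 of 13 (23.1%), namely MED26, MED8 and skd, cytochrome P450 genes for 3 of 20 (15.0%), namely Cyp6w1, Cyp6a20 and Cyp9b2, and autophagy genes for 1 of 12 (8.33%), Atg18. In the mitochondrion and on vesicles the shares were close to the background, with 8 of 25 respiratory chain genes (32.0%) and 7 of 18 subunits of the V-ATPase proton pump (38.9%), among them Vha44 (5.57, 4.71 and 7.01). Chaperones were listed for 10 of 24 (41.7%), with Hsp83, the fly Hsp90, at 6.67, 6.29 and 5.74.

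Finally, the list was set beside the other factors mapped in the same nuclei, for which CREB and CRTC had 1 library each. A CREB/CRTC site lay within 200 bp of 10.5% of the listed regions and 13% of the other windows, a lower share that was not uniform over the gene. By gene the direction was the opposite, since 19.7% of the listed genes (348 of 1765) and 15.9% of the other genes (543 of 3420) had a CREB/CRTC site. The count by gene does not allow for the number of windows, and genes with more windows were more often listed. By window, the peak table named 19.6% of the listed regions to a gene with such a site. It did so for 29.4% of the other windows and 17.5% of the other windows near a TSS. These comparisons rest on the 2390 CREB/CRTC sites derived from the deposited tables. The paper counts more such sites, so a window without a site here may hold another of them. The difference was -4.25 points (-7.14 to -1.07) in 5′ untranslated regions and -2.08 points (-3.65 to -0.111) in coding exons, whereas it was 0.950 points (-2.63 to 4.98) in introns and -1.36 points (-5.43 to 3.21) upstream. H4K16Ac was measured in the same design with 3 libraries per group, and the listed regions differed from the other windows most in introns. Of the intron windows with an H4K16Ac peak, 26.9% of those listed for H3K9Ac (91 of 338) and 16.3% of the others (237 of 1457) overlapped a listed H4K16Ac region, a difference of 10.7 points (5.78 to 15.9). These groups differed in distance from a TSS. Of all intron windows, 282 of the 457 listed and 727 of the 2247 others lay near a TSS. The intron comparison was not repeated near a TSS, so an effect of distance cannot be told apart. In 5′ untranslated regions the difference was 0.815 points (-3.47 to 5.37), upstream it was 5.55 points (-0.264 to 11.8) and in coding exons 2.79 points (-1.26 to 7.21). Differences between these classes were not tested. Both overall differences depended on the definition: that of CREB/CRTC sites, -2.46 points (-4.04 to -0.779), was -0.0545 points where a site had to overlap the window, and that of H4K16Ac, 4.95 points (2.60 to 7.38), was 0.957 points near a TSS. In the first part of the list 24.4% of all regions overlapped a listed H4K16Ac region, and in the second 16.7%. By gene, 25% of the listed genes and 18% of the other genes were also in the H4K16Ac list, without allowance for the number of windows per gene.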

How the data were processed

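Reads of the SOLiD5500 libraries had been mapped by the authors to dm3 with LifeScope, reads of low mapping quality had been discarded, and peaks had been called against input with PICS and ERD. In the deposited tables each peak has a PICS score and a false discovery rate (a q-value) given by the authors, with its gene and the distance to a TSS. The deposited list of increased sites also has columns for a mean, an SD and a t-test, which are the authors' own comparison and were not used, so no size or p-value of a change is given here. The methods name DESeq2 on counts in 400 bp windows, as used by the authors, with a threshold on its adjusted p-value, but which rule gave the rows of the deposited list, whose number differs from the paper's count, is not given in the sources used here. No counts per library were used here, and 0 columns of single samples were left unmapped. The count test, the comparison of replicates and motif searches were not run.

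Groups followed the sample labels. Peaks were set to 400 bp windows with Python 3.11.15 and pandas 2.3.3, the listed regions were taken first, and then each window that overlapped none already taken. The distance to a TSS in the peak table was reduced by 200 bp, with 0 as the floor. Shares have 95% Wilson intervals and differences 95% Newcombe intervals, and no p-value was computed. Functions were tested on simulated data. Symbols were brought to 1 per RefSeq gene, by which 146 were replaced and 99.7% of the background genes were matched. Coordinates are those of dm3.

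Regions and gene lists were chosen with earlier results of these data known. In each list the text names all listed members where there are at most 8, otherwise the 6 with the highest PICS score, those with most listed regions, and unlisted members with a peak where there are at most 8 (some are left out for length), as well as genes with 3 or more regions, the 10 genes followed up by the study and the 5 regions with the highest score. Genes outside this rule are marked in the text or follow from a stretch or pathway already named. The cyclophilin Cyp1 was taken out of the P450 list and the kinase gene SRPK out of the small RNA list after matching. Alternatives varied the background, the window width, the gene names and the limits on distance and overlap. The result of 1 gene list is not reported here.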

Additional observations from a re-analysis of the deposited data

How the results depend on the processing

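Of 242 alternatives, 225 left the direction and the side of the interval as they were or moved a share by less than its interval, and 17 did not. The share of windows listed, 24.2% in the text, was 30.6% near a TSS, 28.9% with merged loci, 17.5% with windows of 200 bp, 26.2% with a peak in at least 2 runs and 20.0% without the first part of the list, which follows from the number of windows in each background. Differences of listed from other windows changed sign near a TSS for the 5′ untranslated region (-1.26 points), coding exons (-1.25 points) and peaks in all 3 runs (-1.39 points). With the first part of the list alone they changed sign for coding exons (-15.8 points) and introns (3.29 points). For 2L the interval excluded 0 with merged loci (-3.08 points) and without the first part (-2.39 points). The CREB/CRTC difference was -0.0545 points with direct overlap and the H4K16Ac difference 0.957 points near a TSS, both with intervals that include 0. Without genes of CREB/CRTC sites the listed share was 50% for JAK/STAT and Toll, 20.0% for the ecdysone response and 9.09% for activity-regulated genes. Of 47 gene lists with at least 10 members, 27 stayed on 1 side of the share of all genes throughout. The alternatives on the parts of the list, the genes of CREB/CRTC sites and the TSS limit for H4K16Ac were chosen after seeing the data.

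No paired analysis was possible because the tables give no values per library. For the same reason leaving out each replicate in turn was not run, and the motif comparison was not run because no promoter sequence was used here. The number of windows behind each share limits its precision, and the tables give no read depth.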
